A study of Mus musculus with 30 samples.

Results

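The 32 genes described here encode chaperones of the endoplasmic reticulum (ER) and components of the unfolded protein response. They were taken as the rows of the deposited count table whose Ensembl identifier, with its version removed, maps to a listed mouse symbol, and all 32 were found among 57186 identifiers. The libraries came from 2 mouse cell lines: NIH/3T3, a fibroblast line grown in DMEM with fetal bovine serum, and CGR8, an embryonic stem cell line maintained in N2B27 with 2i and LIF. Each line carries the same ROSA26 SLT knock-in, so it is present in every group. Cycloheximide, an inhibitor of translation elongation, was given at 0.1 µg/mL, and cells were sampled for RNA after 0, 1, 2, 5 and 48 h. Each of the 10 groups had 3 libraries, lettered A to C, which gives 30 libraries. The labels give the same drug and dose for the 0 h libraries, so 0 h is read here as the time in the drug. The series holds no group kept without the drug to 1, 2, 5 or 48 h. Changes against 0 h with the drug and with time in culture can therefore not be told apart. The media differ between the lines, so differences by line and by medium cannot be told apart either. No label says that the lettered libraries came from separate cultures, so the p-values measure only the spread between these libraries, which may be technical.

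Secreted and membrane proteins enter the ER through the Sec61 translocon, are glycosylated and oxidised there, and fold with the help of Hsp70 and Hsp90 family chaperones, lectin chaperones and protein disulfide isomerases. Proteins that do not fold are sent back to the cytosol by ER-associated degradation, in which lectins and membrane adaptors deliver them to ubiquitin ligases. When unfolded protein accumulates, the sensors IRE1 (Ern1), ATF6 and PERK (Eif2ak3) in the ER membrane act: IRE1 splices Xbp1 mRNA, ATF6 is cleaved to an active factor, and both factors raise transcription of chaperone and degradation genes. Fibroblasts make much secreted matrix, with collagens as the main cargo. Blocking translation lowers the flow of new protein into the ER.

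Total counts ran from 18.2 to 30.5 Mcounts (megacounts) per library (24.2 ± 2.95 Mcounts, SD, n = 30), and each library correlated with the mean of its other replicates at 0.987 to 0.997 on the log2 scale. Library C of NIH/3T3 at 1 h had the largest median absolute log2 deviation from its group, 0.323, followed by CGR8 2 h A with 0.299 and CGR8 5 h C with 0.276. Without NIH/3T3 1 h C the members called at 1 h in that line stayed at 0. Without CGR8 2 h A those called at 2 h were 5 in place of 6. Without CGR8 5 h C those called at 5 h stayed at 15, and the line differences at 5 h were 8 in place of 5. The lines matched their labels. The summed level of 6 embryonic stem cell markers was at most 0.549 CPM in NIH/3T3 and at least 4278 CPM in CGR8. That of 6 fibroblast markers was 4021 to 10099 CPM in NIH/3T3 and at most 5.09 CPM in CGR8. Of the fibroblast markers, Thy1 and Postn were near absent in NIH/3T3. Thy1 went the other way, with at most 0.0925 CPM in NIH/3T3 and 1.45 to 4.50 CPM in CGR8. Mitochondrial transcripts took 0.262% to 0.955% of counts, with the group mean lowest at 5 h in both lines, 0.400% in NIH/3T3 and 0.320% in CGR8, against 0.557% and 0.539% at 0 h. The 48 h means were higher than at 0 h, 0.847% for the fibroblasts and 0.642% for the stem cells. Their part in the results below was not tested. Levels are given in CPM, the counts of a gene scaled to the library total times its TMM factor. A gene is called higher or lower where edgeR's quasi-likelihood test gave a Benjamini-Hochberg adjusted p under 0.05 over all genes tested, and fold changes are fitted values ± SE. The background is the share of all genes tested that were called the same way. Each test was repeated with RLE scaling, with library size alone, with no filter on low counts and without each library, and a setting is named where it ends a call. In bulk libraries, fewer cells of a type and less RNA per cell cannot be told apart.

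The promoters of 8 members held the ER stress response element (ERSE), a motif known to be bound by NF-Y together with ATF6 or XBP1, and their sequences are shown because these genes are compared with the other members below. The promoter table, from RefSeq on GRCm38.p6, covers 250 bases before to 50 bases after each annotated start and had 26 of the 32 members. Hyou1, Ssr2, Derl1, Manf, Atf6 and Sec61a1 were not in it. Both strands were searched for the ERSE, spelled as CCAAT, then 9 bases of any kind, then CCACG, for ERSE-II, spelled as ATTGG, then 1 base of any kind, then CCACG, and for the core of the unfolded protein response element, TGACGTGG. The ERSE was found in 8 of 26 members (30.8%) and in 37 of all 27025 genes with a promoter of that length (0.137%). By promoter this was 39 of 32851 (0.119%). Members were 8 of the 37 genes that held it. ERSE-II was found in Herpud1 and Dnajb11, 2 of 26 members (7.69%), against 0.0444% of genes and 0.0365% of promoters, and no member held both. The core element was in 0 of 26 members, in 0.714% of genes and in 0.676% of promoters. Each sequence is on the gene's own strand with 10 bases on either side and the match in capitals; where the match is on the other strand (Calr, Creld2 and the downstream match of Hsp90b1), the capitals read as its reverse complement.
Hspa5: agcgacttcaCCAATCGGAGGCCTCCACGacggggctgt
Calr: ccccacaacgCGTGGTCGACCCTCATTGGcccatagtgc
Hsp90b1: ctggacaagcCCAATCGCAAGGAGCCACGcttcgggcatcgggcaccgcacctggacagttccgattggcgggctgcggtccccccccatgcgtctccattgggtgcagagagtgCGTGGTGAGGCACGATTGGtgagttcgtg
Canx: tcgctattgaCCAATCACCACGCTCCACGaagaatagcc
Pdia6: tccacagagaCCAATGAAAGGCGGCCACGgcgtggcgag
Dnajc3: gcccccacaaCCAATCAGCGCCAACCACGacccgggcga
Creld2: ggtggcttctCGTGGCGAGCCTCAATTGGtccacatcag
Syvn1: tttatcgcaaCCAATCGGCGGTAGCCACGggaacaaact
Herpud1: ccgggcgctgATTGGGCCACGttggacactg
The windows lie at chr2:34772015-34772053 on the plus strand for Hspa5, chr8:84847065-84847103 on the minus strand for Calr, chr10:86705523-86705666 on the minus strand for Hsp90b1, chr11:50325790-50325828 on the minus strand for Canx, chr12:17266481-17266519 on the plus strand for Pdia6, chr14:118937817-118937855 on the plus strand for Dnajc3, chr15:88819510-88819548 on the plus strand for Creld2, chr19:6046522-6046560 on the plus strand for Syvn1 and chr8:94386367-94386397 on the plus strand for Herpud1, all in GRCm38.p6. ERSE matches began between -212 bases from the start (Hsp90b1, which held 2) and -44 (Syvn1), and those of Herpud1 and Dnajb11, both an ERSE-II, began at -52 and at 7, the latter past the start and not printed. A match is a description of letters, not a shown binding site.

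At 0 h, most members were lower in the stem cells than in the fibroblasts. Of 32 members, 25 were lower in CGR8 (background of all 17549 genes tested in both lines, 36.3%) and 3 were higher (background 42.8%), with a median log2 difference of -1.07 against 0.15 for all genes. The 3 were Hyou1, Pdia4 and Dnajb9. Dnajb9 had 0 counts in NIH/3T3 and passed the filter on low counts only through CGR8, so its call adds nothing to this count. Per kilobase of annotated exon, the mean level at 0 h in NIH/3T3 was highest for P4hb, the disulfide isomerase subunit of prolyl hydroxylase, at 629 ± 38.7 CPM per kb (SD, n = 3). Calr followed with 416 ± 22.3, Pdia3 with 398 ± 8.92 and Hspa5 with 332 ± 3.09 CPM per kb. In CGR8, Calr led with 380.0 ± 76.6 CPM per kb, followed by P4hb with 213 ± 44.0, Ssr2 with 163 ± 30.6 and Pdia3 with 156 ± 9.27, and the SD ranges of P4hb and Ssr2, and of Ssr2 and Pdia3, overlap. The sensor Ern1 had the lowest level of the members counted in both lines, 3.11 ± 0.125 CPM per kb in NIH/3T3 and 0.805 ± 0.210 in CGR8.

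**Figure D1:**
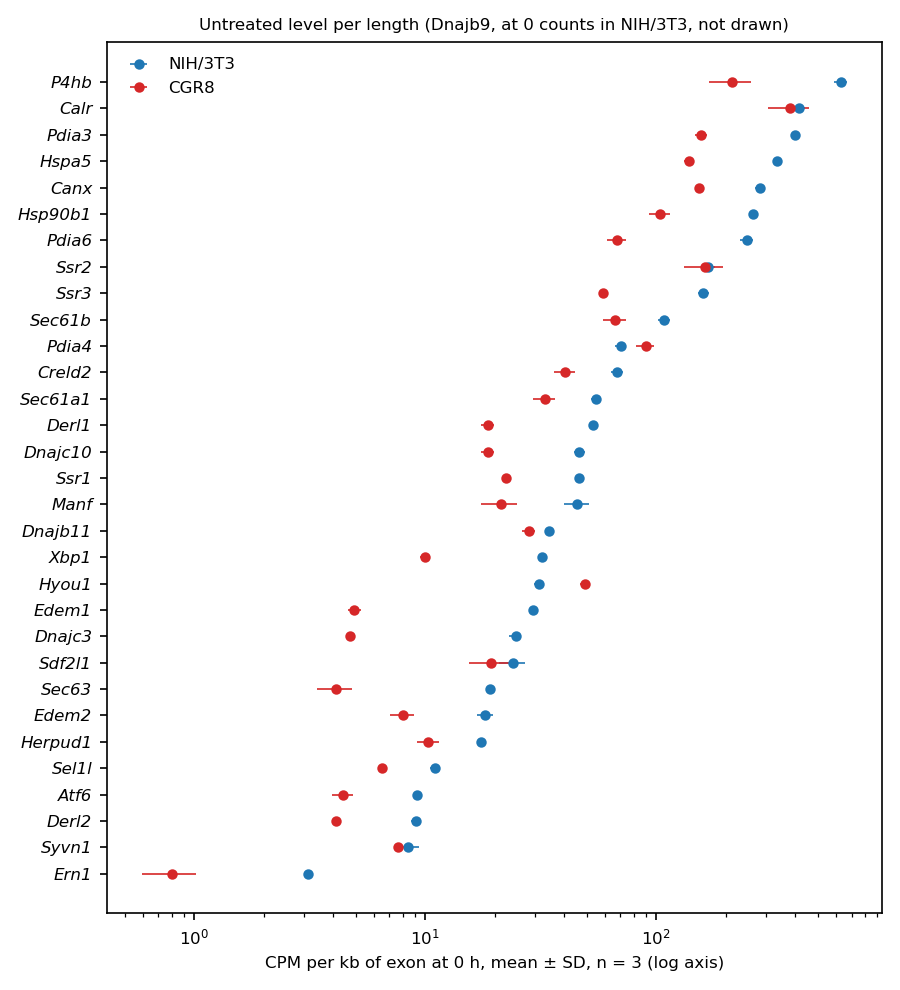
Level at 0 h per kilobase of exon (x axis, log scale, CPM per kb) for 31 members (y axis, ordered by NIH/3T3), with points for the mean and bars for the SD of 3 libraries in each line. Most CGR8 points lie to the left of the NIH/3T3 points, while Hyou1 and Pdia4 lie to the right.

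Among the 31 members counted in both lines, the largest fitted differences at 0 h were those of Edem1, Dnajc3, Sec63 and Ern1. Edem1, a lectin-like mannosidase that takes glycoproteins to degradation, had 186, 195 and 188 CPM at 0 h in NIH/3T3 and 32.8, 29.5 and 33.3 CPM in CGR8, 5.89-fold lower (log2 difference -2.56 ± 0.09, adjusted p = 3.80e-20). Dnajc3, a co-chaperone that also inhibits PERK, was 5.17-fold lower in CGR8 (-2.37 ± 0.08, adjusted p = 1.19e-20). Sec63, a translocon J-domain protein, was 4.61-fold lower (-2.21 ± 0.11, adjusted p = 7.13e-17), and Ern1 was 3.82-fold lower (-1.93 ± 0.23, adjusted p = 9.11e-09). Hyou1, a large Hsp70 relative that exchanges nucleotide on BiP, went the other way, 1.61-fold higher in CGR8 (0.68 ± 0.09, adjusted p = 6.97e-08), as did Pdia4 (0.37 ± 0.09, adjusted p = 6.63e-04). The difference did not pass the threshold for Calr (-0.12 ± 0.16, adjusted p = 0.506), Sdf2l1 (-0.30 ± 0.16, adjusted p = 0.0913), Syvn1 (-0.12 ± 0.13, adjusted p = 0.392) or Ssr2 (-0.03 ± 0.14, adjusted p = 0.850). The call of Dnajb11 (-0.29 ± 0.09, adjusted p = 0.00748) was lost without CGR8 0 h A (adjusted p = 0.0517) and with RLE scaling (adjusted p = 0.0527).

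Dnajb9, the J-domain co-chaperone that restrains IRE1, had 0 counts in all 15 NIH/3T3 libraries, of 353 Mcounts in all. Counting error alone would allow up to 3 counts, 0.00851 CPM of the unscaled library totals. In CGR8 it had 5696 counts, 266 to 512 per library, or 15.3 CPM of the unscaled totals over 15 libraries, at least 1793-fold higher than that limit over the line. Its nearest protein-coding neighbours in the RefSeq table were counted in both lines: Pnpla8 had 13370 counts in NIH/3T3 and 11451 in CGR8, and Lrrn3 had 799 and 97. The next genes on either side were also counted in both lines, Immp2l with 3037 and 1463 counts and Nrcam with 1025 and 293. Dnajb9 therefore failed the filter on low counts in NIH/3T3, where 31 of 32 members were tested, and its change cannot be compared between the lines.

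Together the 32 members took 1.16% to 1.34% of counts over the 15 NIH/3T3 libraries and 0.517% to 0.869% over the 15 CGR8 libraries. In NIH/3T3 they took 1.27% ± 0.00822 of counts at 0 h (SD, n = 3), 1.17% ± 0.00313 at 5 h and 1.21% ± 0.0172 at 48 h. In CGR8 the share was 0.672% ± 0.0284 at 0 h, 0.541% ± 0.0253 at 5 h and 0.859% ± 0.0106 at 48 h, and the libraries of these 3 times did not overlap.

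**Figure D2:**
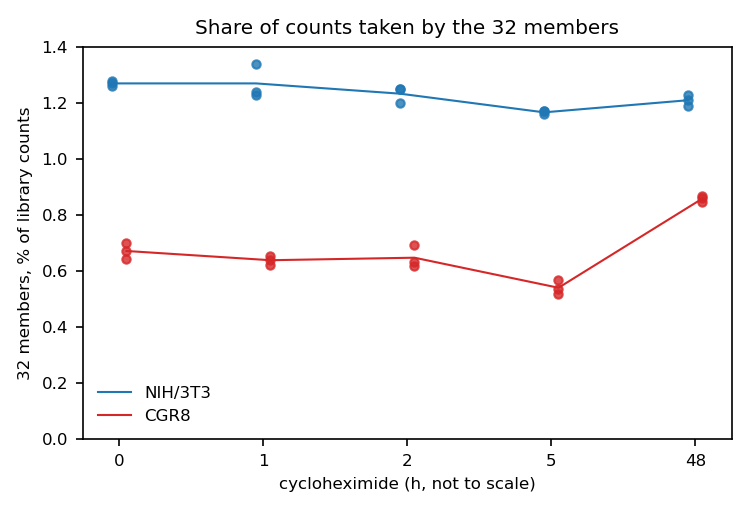
Share of all counts taken by the 32 members (y axis, percent) at each time in cycloheximide (x axis, hours, not to scale), with a point for each library and lines through the group means. The CGR8 libraries sit between 0.643% and 0.700% at 0 h, between 0.517% and 0.567% at 5 h and between 0.848% and 0.869% at 48 h.

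After 1 h no member passed the edgeR quasi-likelihood test at an adjusted p under 0.05, the test behind every adjusted p given here. In NIH/3T3, 0 of 31 members were called (background 0.732% of 13941 genes in either direction), with 1 at an unadjusted p under 0.05. DESeq2 called 0 members and limma voom with sample weights called 4. Voom called 2881 of all genes there, against 102 by edgeR, so edgeR's background does not apply to its count. In CGR8, 0 of 32 were called (background 0.270% of 15933 genes), with 1 at an unadjusted p under 0.05, 0 by DESeq2 and 2 by voom. Of all genes in this line, voom called 1044 and edgeR 43. The libraries at 1 h and 0 h did not overlap for 4 of 31 NIH/3T3 members (background 14.4%) and 13 of 32 CGR8 members (background 25.5%). The change at 1 h differed between the lines for 0 members (background 0.160%), with 1 at an unadjusted p under 0.05, 0 by DESeq2 and 0 by voom. Herpud1 was the CGR8 member with an unadjusted p under 0.05. Its levels were 24.8, 26.2 and 21.1 CPM at 0 h and 16.3, 18.0 and 16.9 at 1 h, and its fitted log2 value was -0.48 ± 0.14 (adjusted p = 0.275).

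At 2 h a small set of degradation genes was lower in both lines. In NIH/3T3, 6 of 31 members fell (background 18.9%) and 3 rose (background 16.1%), and in CGR8, 6 of 32 fell (background 11.0%) and 0 rose (background 8.97%). The NIH/3T3 count that fell is near the background, and the count that rose is under it. Edem1, Herpud1, Sel1l and Syvn1 fell in both lines, 4 of the 6 in each. How many of all genes fell in both lines was not counted, so this overlap has no background. The other genes that fell were Hsp90b1 and Pdia4 in NIH/3T3 and Ern1 and Sec61a1 in CGR8. Those that rose in NIH/3T3 were Derl2, Sec61b and Ssr3. Scaling by library size alone changed the NIH/3T3 split to 3 higher and 10 lower. The NIH/3T3 count of 9 was 5 without 2 h B, and the CGR8 count of 6 was 2 without 2 h C. Without 2 h B, the calls of Ssr3, Sec61b, Pdia4 and Edem1 in NIH/3T3 were those lost (adjusted p 0.0523 to 0.0881), and without 2 h C those of Sec61a1, Edem1, Ern1 and Sel1l in CGR8 (adjusted p 0.0566 to 0.173). Other left-out libraries ended calls of the same genes. Including those, in NIH/3T3 the call of Sec61b was lost without 0 h A, 0 h C, 2 h B or 2 h C (adjusted p 0.0569 to 0.0989). That of Derl2 was lost without 0 h B, 0 h C or 2 h A (adjusted p 0.0687 to 0.0985), that of Pdia4 without 0 h C, 2 h B or 2 h C, or with no filter on low counts (adjusted p 0.0831 to 0.114). The call of Edem1 there was lost without 2 h B or 2 h C, or with no filter on low counts (adjusted p 0.0523 to 0.111). In CGR8, the call of Edem1 was lost without 0 h A, 0 h C, 2 h A or 2 h C, or with library size alone or no filter on low counts (adjusted p 0.0556 to 0.173). The call of Ern1 was lost without 0 h A, 0 h C, 2 h A or 2 h C, or with library size alone (adjusted p 0.0508 to 0.153). For Sec61a1 it was lost without 0 h B or 2 h C (adjusted p 0.0580 to 0.0990).

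At 5 h the members called lay mostly on the lower side. In NIH/3T3, 12 of 31 fell (background 27.1%) and 1 rose (background 24.0%), and in CGR8, 13 of 32 fell (background 27.2%) and 2 rose (background 24.9%). The median log2 fold change was -0.18 in NIH/3T3 and -0.14 in CGR8, against -0.01 for all genes in each line. The CGR8 median moved with the setting: it was -0.03 against -0.04 for all genes with voom, and -0.06 against -0.01 without 0 h B. Xbp1, Herpud1, Edem1, Sel1l, Syvn1, Hsp90b1, Hyou1, Canx, Pdia4 and Sec61a1 fell in both lines, which is 10 of the 12 NIH/3T3 genes and 10 of the 13 CGR8 genes. The share of all genes that fell in both lines was not counted, so whether this overlap is particular to the members was not tested. At 5 h the summed fibroblast markers in NIH/3T3 were 4272 to 4920.2 CPM, below the 0 h libraries, and the summed stem cell markers in CGR8 were 5811 to 6901 CPM, above them. Their part in the changes at 5 h was not tested.

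At 48 h the members called were on the higher side in CGR8 and on both sides in NIH/3T3. In CGR8, 18 of 32 members were higher than at 0 h (background 12.2%) and 1 was lower (background 15.6%), with a median log2 fold change of 0.37 against 0.00 for all genes. In NIH/3T3, 6 of 31 were higher (background 26.7%) and 7 were lower (background 25.6%), with a median of -0.04 against -0.01. Neither NIH/3T3 count exceeded its background. With library size alone the NIH/3T3 split was 8 higher and 4 lower. The NIH/3T3 count of 13 was 8 without 0 h C and 7 without 48 h B. Sec63, Xbp1 and Dnajc3 were higher in both lines, 3 of the 6 in NIH/3T3 and of the 18 in CGR8. Shares of all genes called in both lines, the same way or in opposite ways, were not counted. Hspa5, Hsp90b1, Pdia3, Pdia6 and Dnajb11 were lower in NIH/3T3 and higher in CGR8. Of these NIH/3T3 calls, those of Pdia6 and Dnajb11 held throughout. Those of Hspa5, Hsp90b1 and Pdia3 did not hold under every setting or without each library, as given below. The summed fibroblast markers in NIH/3T3 were 6661 to 7545 CPM at 0 h and 10016 to 10099 CPM at 48 h. The summed stem cell markers in CGR8 were 4287 to 4535 CPM and 4771 to 5232 CPM, and 8 early differentiation markers there summed to 39.9 to 42.9 CPM and 30.7 to 35.4 CPM. Their part in these changes was not tested.

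Between 5 h and 48 h most members called were higher at the later time. In NIH/3T3, 15 of 31 members were higher at 48 h than at 5 h (background 34.1%) and 5 were lower (background 31.4%). In CGR8, 22 of 32 were higher (background 28.9%) and 2 were lower (background 28.6%), with a median log2 fold change of 0.60 against -0.01 for all genes. In NIH/3T3 the calls of Creld2 (higher) and Derl2 (lower) were lost, the first without 5 h A, 5 h B or 48 h A, or with no filter on low counts (adjusted p 0.0605 to 0.0688) and the second without 5 h A, 5 h C or 48 h A (adjusted p 0.0502 to 0.0620). In CGR8 the call of Dnajc10 (higher) was lost without 5 h A, 48 h A, 48 h B or 48 h C, or with no filter on low counts (adjusted p 0.0545 to 0.225), that of Pdia3 (higher) without 5 h C or 48 h B, or with no filter on low counts (adjusted p 0.0525 to 0.0800) and that of Sec61b (lower) without 5 h A or 48 h C (adjusted p 0.0610 to 0.0949).

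**Figure D3:**
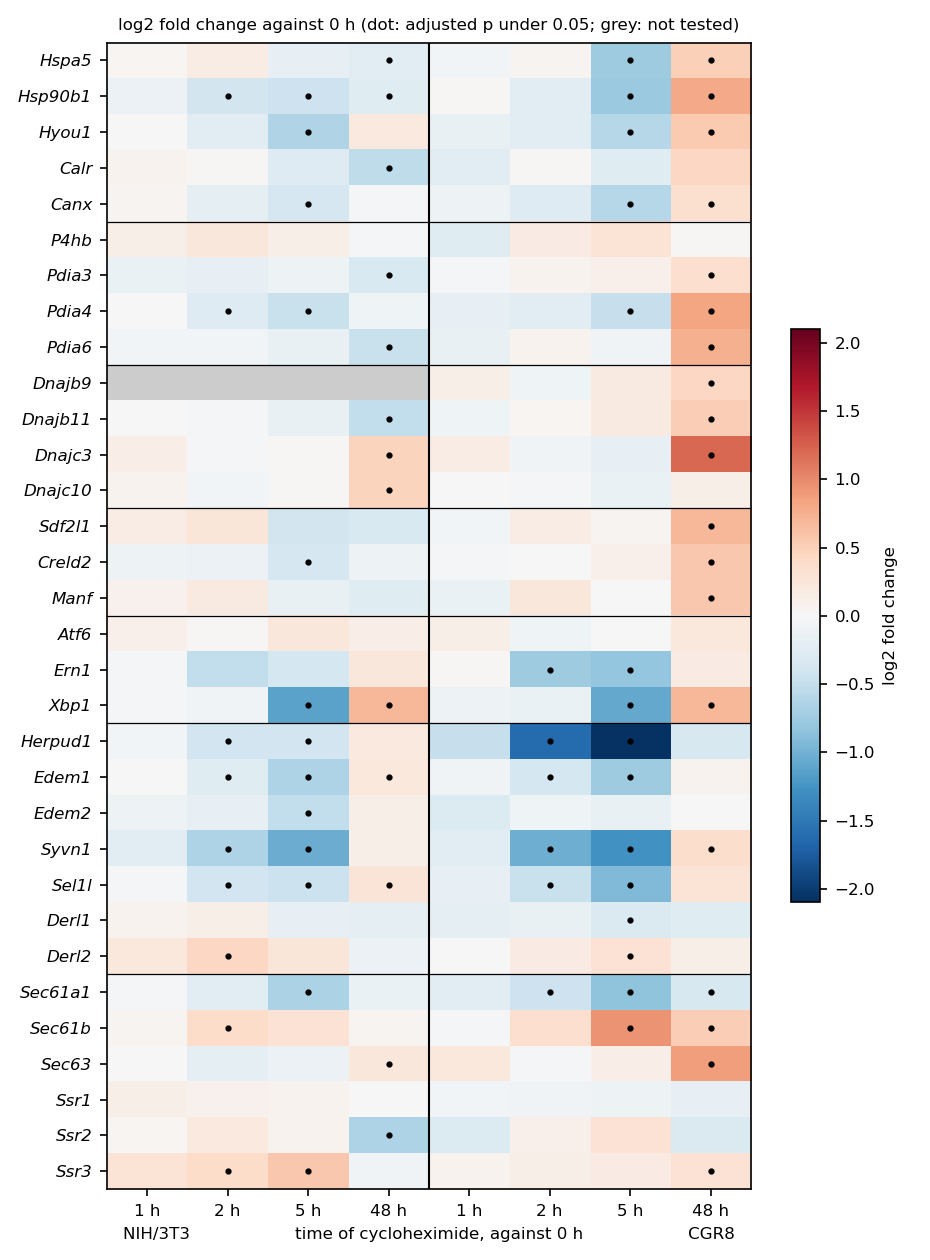
log2 fold change against 0 h (colour, blue lower and red higher) for the 32 members (rows, grouped by role) at 1, 2, 5 and 48 h in NIH/3T3 (left) and CGR8 (right), with dots where the adjusted p was under 0.05 and grey where the gene was not tested. The columns at 1 h hold no dot, the CGR8 column at 5 h holds 13 dots on the lower side and the CGR8 column at 48 h holds 18 on the higher side.

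The change against 0 h was then compared between the lines directly, as the CGR8 change minus the NIH/3T3 change, and most members called were called at 48 h. The change at 2 h differed for 1 member, Herpud1 (0 higher in CGR8, background 0.866%, and 1 lower, background 1.16%). At 5 h, 3 members had a higher change in CGR8 (background 8.18%) and 2 a lower one (background 5.09%). This count of 5 was 3 without NIH/3T3 0 h C, NIH/3T3 5 h B or CGR8 0 h A and 8 without CGR8 5 h C. Without CGR8 5 h A, or without CGR8 5 h B, the split was 0 higher and 4 lower. The median difference over all genes was then -0.06 and -0.04. RLE scaling gave 1 higher and 3 lower, and library size alone 1 and 5; the median difference over all genes was 0.13 with the TMM factors used here, 0.05 with RLE and -0.06 with library size alone. At 48 h, 12 of 32 members had a higher change in CGR8 (background 9.78%) and 2 had a lower one (background 12.1%), with a median of 0.35 against -0.03 for all genes. Library size alone gave the same split, 12 and 2, with medians of 0.26 and -0.11. Dnajb9, with 0 counts in NIH/3T3, is among the members not called.

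**Figure D4:**
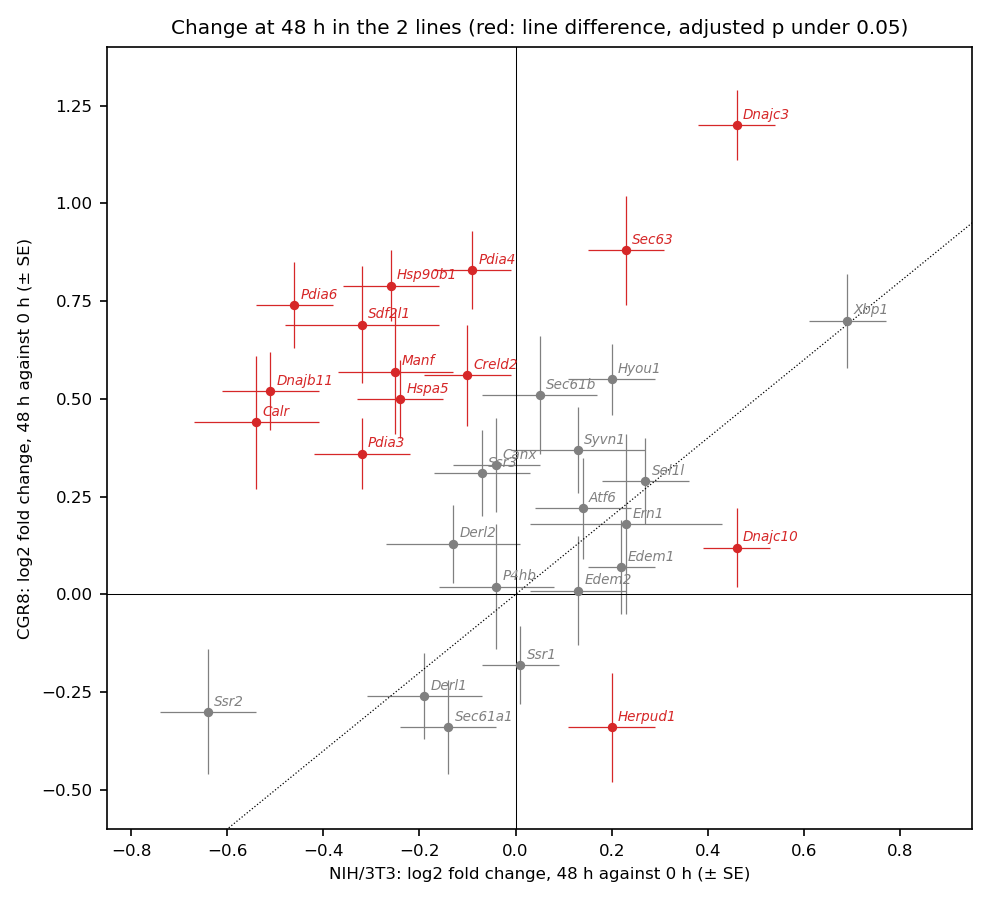
log2 fold change at 48 h against 0 h in CGR8 (y axis) and in NIH/3T3 (x axis) for 31 members, with SE bars, a dotted line of equal change, and red where the difference between the lines had an adjusted p under 0.05. Pdia6, Hsp90b1 and Dnajb11 lie at the upper left, Xbp1 lies on the line, and Dnajc10 and Herpud1 are the red points below it.

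Of the sensors and factors, Xbp1 changed most, and by nearly the same amount in both lines. Xbp1 encodes the factor that IRE1 activates by splicing; the counts do not tell spliced from unspliced mRNA. In NIH/3T3 its level was 107, 100.1 and 105 CPM at 0 h, 48.2, 46.7 and 43.7 at 5 h and 175, 167 and 158 at 48 h. CGR8 had 32.7, 33.8 and 30.7 CPM at 0 h, 16.7, 15.2 and 13.9 at 5 h and 53.9, 53.0 and 51.1 at 48 h. In each line the 3 times did not overlap, with 5 h lowest and 48 h highest. The log2 fold change at 5 h was -1.12 ± 0.09 (adjusted p = 9.64e-08) in NIH/3T3 and -1.08 ± 0.12 (adjusted p = 4.87e-06) in CGR8. The 48 h values were 0.69 ± 0.08 (adjusted p = 5.10e-06) and 0.70 ± 0.12 (adjusted p = 3.44e-04). The line difference at 48 h was 0.00, with a 95% interval of -0.28 to 0.27. Ern1 fell in CGR8, from 7.90, 4.65 and 7.20 CPM at 0 h to 3.14, 4.02 and 4.04 CPM at 5 h (-0.82 ± 0.24, adjusted p = 0.00895). In NIH/3T3 its change of -0.37 ± 0.20 (adjusted p = 0.136) did not pass the threshold. Atf6 had no call against 0 h at any time in either line, with log2 values from -0.09 to 0.24.

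Most members of ER-associated degradation fell at 5 h. Of 7, 5 fell at 5 h in NIH/3T3 (background 27.1%) and 5 in CGR8 (background 27.2%), where 1 rose (background 24.9%), with medians of -0.45 and -0.74. Herpud1, a membrane adaptor of the degradation complex, fell most in CGR8. Its level there was 24.8, 26.2 and 21.1 CPM at 0 h, 16.3, 18.0 and 16.9 at 1 h, 10.0, 7.21 and 6.27 at 2 h, 6.28, 5.11 and 5.53 at 5 h and 19.9, 18.8 and 18.1 at 48 h. The NIH/3T3 levels were 39.2, 40.2 and 42.1 CPM at 0 h, 38.5, 34.6 and 39.9 at 1 h, 32.9, 26.8 and 27.8 at 2 h, 30.2, 29.1 and 28.9 at 5 h and 45.9, 47.8 and 45.2 at 48 h. The 2 h and 5 h libraries of CGR8 lay far under those at 0 h, while in NIH/3T3 the gap was small, also without overlap. At 5 h this was 4.24-fold lower in CGR8 (log2 -2.08 ± 0.16, adjusted p = 2.00e-07) and 1.33-fold lower in NIH/3T3 (-0.41 ± 0.09, adjusted p = 0.00158), a line difference of -1.58 ± 0.17 (adjusted p = 4.83e-07). The difference at 2 h was -1.16 ± 0.17 (adjusted p = 7.27e-05), and at 48 h -0.56 ± 0.17 (adjusted p = 0.0160). The last was not past the threshold without CGR8 0 h B, or with no filter on low counts (adjusted p 0.0550 to 0.0733).

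Syvn1, the ubiquitin ligase of the degradation complex also called Hrd1, and Sel1l, its adaptor, fell in both lines at 5 h and were higher again at 48 h. Syvn1 in NIH/3T3 was 40.0, 36.5 and 45.9 CPM at 0 h, 23.8, 26.4 and 24.4 at 2 h, 17.0, 19.6 and 20.6 at 5 h and 45.7, 45.6 and 41.6 at 48 h. The CGR8 levels were 38.4, 36.6 and 36.2 CPM at 0 h, 18.3, 20.9 and 15.2 at 2 h, 15.1, 15.1 and 15.8 at 5 h and 46.8, 48.9 and 48.5 at 48 h. All 2 h and 5 h libraries lay under all 0 h libraries in both lines, with log2 fold changes at 5 h of -1.05 ± 0.15 (adjusted p = 2.96e-05) in NIH/3T3 and -1.27 ± 0.12 (adjusted p = 8.94e-07) in CGR8. Sel1l was 93.0, 99.0 and 90.3 CPM at 0 h, 67.5, 63.5 and 68.8 at 5 h and 116, 113 and 109 at 48 h in NIH/3T3, with a log2 value of -0.45 ± 0.10 (adjusted p = 8.96e-04) at 5 h. In CGR8 it was 54.7, 57.0 and 55.3 CPM at 0 h, 24.0, 31.8 and 32.4 at 5 h and 69.7, 63.3 and 71.3 at 48 h, with -0.92 ± 0.11 (adjusted p = 1.10e-05) at 5 h. The 3 times did not overlap in either line. The line difference of Sel1l at 5 h did not pass the threshold (-0.38 ± 0.14, adjusted p = 0.0734). At 48 h Syvn1 was above 0 h in CGR8 (0.37 ± 0.11, adjusted p = 0.0198). This call did not hold without 0 h B, 0 h C, 48 h B or 48 h C, or with no filter on low counts (adjusted p 0.0532 to 0.0641). Sel1l was above 0 h in NIH/3T3 (0.27 ± 0.09, adjusted p = 0.0259). For that call the threshold was missed without 0 h A, 0 h C, 48 h A, 48 h B or 48 h C, or with no filter on low counts (adjusted p 0.0536 to 0.0973).

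The other degradation genes were mixed. Edem1 fell at 5 h by 1.56-fold in NIH/3T3 (-0.64 ± 0.07, adjusted p = 3.41e-06) and 1.67-fold in CGR8 (-0.74 ± 0.12, adjusted p = 1.05e-04). At 48 h it was higher than at 0 h in NIH/3T3 (0.22 ± 0.07, adjusted p = 0.0173). That call was lost without 0 h A, 0 h C or 48 h B, or with no filter on low counts (adjusted p 0.0573 to 0.182). Edem2, a mannosidase of the same family, fell at 5 h in NIH/3T3 (-0.51 ± 0.10, adjusted p = 6.30e-04) and had -0.15 ± 0.14 (adjusted p = 0.406) in CGR8. Derlins are membrane proteins of the exit channel. Derl1 fell in CGR8 at 5 h (-0.30 ± 0.11, adjusted p = 0.0291). This call did not hold without 0 h B, 5 h A or 5 h C, or with RLE scaling or no filter on low counts (adjusted p 0.0541 to 0.121). Derl2 rose there (0.31 ± 0.10, adjusted p = 0.0150). For that call the threshold was missed without 0 h A or 5 h B, or with library size alone or no filter on low counts (adjusted p 0.0504 to 0.164). Exons of Derl2 overlap Mis12 and those of Syvn1 overlap Mrpl49 on the opposite strand in the annotation used here, so their counts are uncertain where strand was not used in counting.

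**Figure D5:**
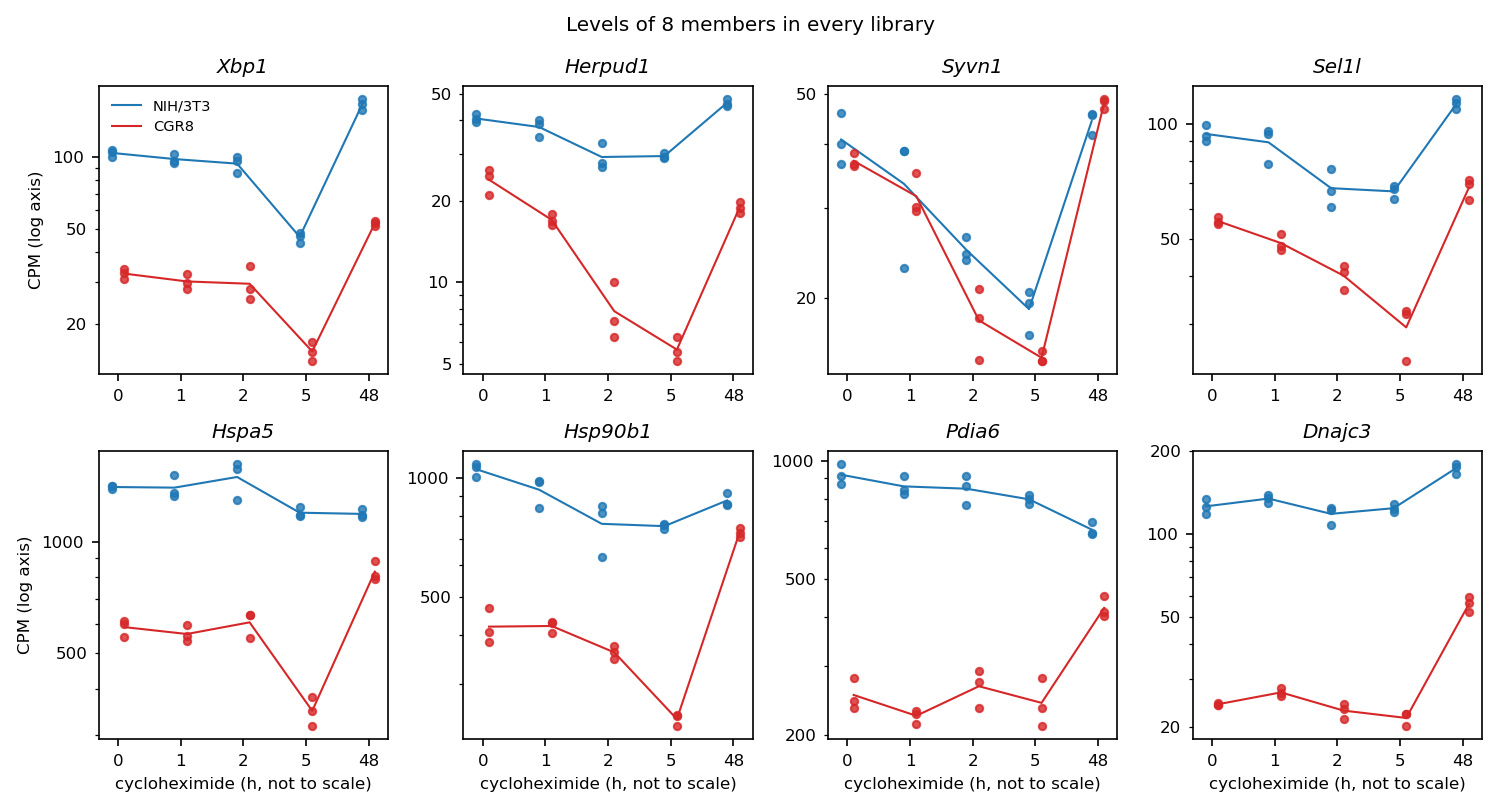
CPM (y axis, log scale) at each time in cycloheximide (x axis, hours, not to scale) for 8 members in NIH/3T3 (blue) and CGR8 (red), with a point for each library and lines through the group means. Xbp1, Syvn1 and Sel1l dip at 5 h and return by 48 h in both lines, Herpud1 dips more in CGR8, and Hsp90b1 and Pdia6 at 48 h are above 0 h in CGR8 and below it in NIH/3T3.

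Most general chaperones fell at 5 h, and at 48 h those called were lower in NIH/3T3 and higher in CGR8. Of 5, 3 fell at 5 h in NIH/3T3 (background 27.1%) and 4 in CGR8 (background 27.2%). At 48 h, 3 were lower than at 0 h in NIH/3T3 (background 25.6%) and 4 were higher in CGR8 (background 12.2%). Hspa5, the Hsp70 of the ER known as BiP, was 1388, 1409.7 and 1411 CPM at 0 h, 1239, 1173 and 1176 at 5 h and 1221, 1178 and 1162 at 48 h in NIH/3T3. CGR8 had 553, 598 and 612 CPM at 0 h, 349, 381 and 318 at 5 h and 807, 888 and 793 at 48 h, with no overlap between these times. The log2 fold change in CGR8 was -0.75 ± 0.10 (adjusted p = 1.91e-05) at 5 h and 0.50 ± 0.10 (adjusted p = 0.00130) at 48 h. In NIH/3T3 it was -0.18 ± 0.09 (adjusted p = 0.109) and -0.24 ± 0.09 (adjusted p = 0.0416). The latter call was lost without any 1 of the 6 libraries, or with library size alone or no filter on low counts (adjusted p 0.0760 to 0.135). The line differences were -0.48 ± 0.13 (adjusted p = 0.0180) at 5 h and 0.71 ± 0.13 (adjusted p = 2.68e-04) at 48 h, and both held without each library.

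Hsp90b1, the Hsp90 of the ER known as GRP94, showed the same split. It was 1088, 1008 and 1067 CPM at 0 h, 759, 744 and 763 at 5 h and 919, 861 and 854 at 48 h in NIH/3T3. The CGR8 levels were 407, 383 and 467 CPM at 0 h, 234, 249 and 248 at 5 h and 708, 749 and 725 at 48 h. The CGR8 values at 48 h were all above, and those at 5 h all below, the 0 h values. The log2 fold change at 5 h was -0.43 ± 0.10 (adjusted p = 0.00151) in NIH/3T3 and -0.78 ± 0.09 (adjusted p = 7.21e-06) in CGR8. The 48 h values were -0.26 ± 0.10 (adjusted p = 0.0347) in NIH/3T3 and 0.79 ± 0.09 (adjusted p = 1.25e-05) in CGR8. The NIH/3T3 call was lost without 0 h A, 0 h C, 48 h A, 48 h B or 48 h C, or with library size alone or no filter on low counts (adjusted p 0.0534 to 0.161). The line difference at 48 h was 1.04 ± 0.13 (adjusted p = 1.63e-06). Exons of Hsp90b1 overlap a transcribed pseudogene and other noncoding genes in the annotation.

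Hyou1 was 219.9, 217 and 236 CPM at 0 h, 142, 133 and 146 at 5 h and 266, 250.0 and 252 at 48 h in NIH/3T3. In CGR8 it was 347, 378 and 347 CPM at 0 h, 222, 264 and 223 at 5 h and 517, 534 and 517 at 48 h. It fell at 5 h in both lines (-0.63 ± 0.09, adjusted p = 3.63e-05 in NIH/3T3 and -0.60 ± 0.09, adjusted p = 8.87e-05 in CGR8). It was higher at 48 h than at 0 h in CGR8 (0.55 ± 0.09, adjusted p = 4.27e-04). In NIH/3T3 the 48 h value was 0.20 ± 0.09 (adjusted p = 0.0807). Calr, the soluble lectin chaperone calreticulin, was 1206, 1129 and 1256 CPM at 0 h and 834, 814 and 817 at 48 h in NIH/3T3, lower in all 3 libraries (-0.54 ± 0.13, adjusted p = 0.00236). CGR8 had 943, 1348 and 992 CPM at 0 h and 1443, 1561 and 1448 at 48 h, higher in all 3 but with a wide spread at 0 h. The change did not pass the threshold (0.44 ± 0.17, adjusted p = 0.0676). The line difference of Calr at 48 h was 0.96 ± 0.22 (adjusted p = 0.00228). A pseudogene of Calr is annotated, and how reads that match both were counted is not given in the sources used here. Canx, the membrane lectin calnexin, fell at 5 h in both lines (-0.36 ± 0.09, adjusted p = 0.00367 in NIH/3T3 and -0.60 ± 0.12, adjusted p = 5.49e-04 in CGR8). It was above 0 h at 48 h in CGR8 (0.33 ± 0.12, adjusted p = 0.0423). That last call was lost without any 1 of the 6 libraries, or with library size alone or no filter on low counts (adjusted p 0.0506 to 0.141).

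Among the disulfide isomerases, Pdia4 fell at 5 h in both lines, and P4hb had no call against 0 h at any time. Pdia4 was 162, 163 and 179 CPM at 0 h, 119, 116 and 117 at 5 h and 163, 149.6 and 159 at 48 h in NIH/3T3. The CGR8 levels were 199.6, 237 and 210.0 CPM at 0 h, 143, 178 and 140.5 at 5 h and 373, 399 and 381 at 48 h. Among these times the 5 h libraries were the lowest in both lines, and the 48 h libraries of CGR8 all lay above those at 0 h. The log2 fold change at 48 h was 0.83 ± 0.10 (adjusted p = 2.80e-05) in CGR8 and -0.09 ± 0.08 (adjusted p = 0.392) in NIH/3T3, a line difference of 0.90 ± 0.13 (adjusted p = 1.08e-05). Pdia6 was 911, 869 and 980.1 CPM at 0 h and 697, 655 and 649.6 at 48 h in NIH/3T3. In CGR8 it was 235, 280.2 and 244 CPM at 0 h and 412, 452 and 401 at 48 h. The groups did not overlap in either line and moved in opposite directions (-0.46 ± 0.08, adjusted p = 2.77e-04 and 0.74 ± 0.11, adjusted p = 1.71e-04). The line difference was the largest of the members at 48 h, 1.18 ± 0.15 (adjusted p = 1.04e-06). Pdia3, which works with the lectin chaperones on glycoproteins, was lower at 48 h in NIH/3T3 (-0.32 ± 0.10, adjusted p = 0.0121) and higher in CGR8 (0.36 ± 0.09, adjusted p = 0.00724). The NIH/3T3 call was lost without 48 h B, or with library size alone (adjusted p 0.0511 to 0.0586). P4hb had -0.04 ± 0.12 (adjusted p = 0.771) in NIH/3T3 and 0.02 ± 0.16 (adjusted p = 0.930) in CGR8 at 48 h.

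No J-domain co-chaperone was called at 5 h by edgeR. The counts were 0 of 3 tested in NIH/3T3 (background 27.1% lower and 24.0% higher) and 0 of 4 in CGR8 (background 27.2% lower and 24.9% higher). An unadjusted p under 0.05 was found for 0 in either line. At 48 h Dnajc3 was the member that rose most in CGR8. It was 24.1, 24.1 and 24.5 CPM at 0 h, 20.2, 22.3 and 22.3 at 5 h and 56.2, 52.2 and 59.2 at 48 h there. In NIH/3T3 it was 119, 134 and 126 CPM at 0 h, 120.3, 129 and 124 at 5 h and 176, 180.0 and 166 at 48 h. All 48 h libraries exceeded all 0 h libraries in both lines, 2.30-fold in CGR8 (1.20 ± 0.09, adjusted p = 3.89e-07) and 1.38-fold in NIH/3T3 (0.46 ± 0.08, adjusted p = 1.53e-04), and the difference was 0.72 ± 0.11 (adjusted p = 1.96e-05). Dnajb11, a partner of BiP on substrates, was 109, 111 and 116 CPM at 0 h and 78.6, 76.8 and 79.4 at 48 h in NIH/3T3. CGR8 had 84.0, 94.7 and 94.1 CPM at 0 h and 128, 141 and 123 at 48 h. It fell in the former (-0.51 ± 0.10, adjusted p = 3.51e-04) and rose in the latter (0.52 ± 0.10, adjusted p = 7.89e-04), with a difference of 1.01 ± 0.13 (adjusted p = 2.87e-06). At 5 h its line difference was 0.45 ± 0.13 (adjusted p = 0.0262). It was lost without NIH/3T3 0 h C, 5 h B or 5 h C, or CGR8 0 h A, 5 h A or 5 h B, or with RLE scaling, library size alone or no filter on low counts (adjusted p 0.0509 to 0.525). Dnajc10, a disulfide reductase with a J domain, rose in NIH/3T3 at 48 h (0.46 ± 0.07, adjusted p = 7.33e-05) and had 0.12 ± 0.10 (adjusted p = 0.403) in CGR8. The line difference was -0.36 ± 0.12 (adjusted p = 0.0291). It was lost without NIH/3T3 0 h A, 0 h C, 48 h A, 48 h B or 48 h C, or CGR8 0 h A, 0 h C, 48 h B or 48 h C, or with no filter on low counts (adjusted p 0.0509 to 0.303). Dnajb9 was 13.9, 13.4 and 13.9 CPM at 0 h and 18.7, 16.9 and 19.8 at 48 h in CGR8, a rise of 0.43 ± 0.14 (adjusted p = 0.0307). This call was lost without 0 h A, 0 h B, 0 h C, 48 h A or 48 h C, or with library size alone (adjusted p 0.0579 to 0.119).

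All 3 small ER stress proteins rose at 48 h in CGR8 (background 12.2%). In NIH/3T3, 0 of 3 were called by edgeR (background 26.7% higher and 25.6% lower), and 0 had an unadjusted p under 0.05. Creld2, a putative disulfide isomerase that is secreted under ER stress, was 50.4, 61.4 and 52.7 CPM at 0 h and 80.8, 84.5 and 77.0 at 48 h in CGR8 (0.56 ± 0.13, adjusted p = 0.00549). The NIH/3T3 levels were 88.4, 90.6 and 98.5 CPM at 0 h, 68.0, 67.3 and 73.0 at 5 h and 91.0, 82.4 and 85.1 at 48 h. It fell at 5 h (-0.36 ± 0.09, adjusted p = 0.00316) and had -0.10 ± 0.09 (adjusted p = 0.390) at 48 h. Sdf2l1, a component of a chaperone complex with BiP, was 20.4, 26.0 and 17.9 CPM at 0 h and 34.5, 34.5 and 34.7 at 48 h in CGR8 (0.69 ± 0.15, adjusted p = 0.00318). In NIH/3T3 it was 23.2, 26.5 and 30.1 CPM at 0 h and 21.1, 21.1 and 21.5 at 48 h (-0.32 ± 0.16, adjusted p = 0.0998). Manf, a secreted neurotrophic factor that binds BiP, rose in CGR8 (0.57 ± 0.16, adjusted p = 0.0129). That call was lost without 0 h A or 48 h B (adjusted p 0.0522 to 0.0674). In NIH/3T3 Manf had -0.25 ± 0.12 (adjusted p = 0.0911). The line difference at 48 h was higher in CGR8 for all 3 (background 9.78%). It was 0.64 ± 0.17 (adjusted p = 0.00562) for Creld2, 0.99 ± 0.23 (adjusted p = 0.00208) for Sdf2l1 and 0.80 ± 0.21 (adjusted p = 0.00586) for Manf. At 5 h that of Creld2 was 0.56 ± 0.17 (adjusted p = 0.0235). It was lost without NIH/3T3 0 h C, 5 h A or 5 h B, or CGR8 0 h A, 0 h C, 5 h A or 5 h B, or with RLE scaling, library size alone or no filter on low counts (adjusted p 0.0522 to 0.430). Exons of Manf overlap those of Dcaf1 and Rbm15b.

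Subunits of the translocon moved apart from each other. Sec61a1, the channel subunit, was 361, 357 and 392 CPM at 0 h, 231, 216 and 228 at 5 h and 345, 336 and 324 at 48 h in NIH/3T3. The CGR8 levels were 206, 249 and 209.6 CPM at 0 h, 111, 136 and 122 at 5 h and 179, 174 and 174 at 48 h. It fell at 5 h in both lines (-0.67 ± 0.10, adjusted p = 4.68e-05 and -0.85 ± 0.12, adjusted p = 2.95e-05). It was the 1 member lower at 48 h in CGR8 (-0.34 ± 0.12, adjusted p = 0.0405). This call did not hold without 0 h B, 0 h C, 48 h A, 48 h B or 48 h C, or with RLE scaling or no filter on low counts (adjusted p 0.0556 to 0.200). Sec61b, the small beta subunit, rose at 5 h in CGR8 from 81.3, 95.1 and 77.0 CPM at 0 h to 192, 170.3 and 128 CPM (0.95 ± 0.15, adjusted p = 7.71e-05). In NIH/3T3 it went from 127, 142 and 141 CPM to 172, 162 and 155 CPM (0.30 ± 0.12, adjusted p = 0.0531). The line difference of 0.74 ± 0.20 (adjusted p = 0.0145) was lost without CGR8 5 h A or 5 h B (adjusted p 0.109 to 0.236). In CGR8 Sec61b was also above 0 h at 48 h (0.51 ± 0.15, adjusted p = 0.0152). For that call the threshold was missed without 0 h A, 0 h C or 48 h A (adjusted p 0.0532 to 0.0633).

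Sec63 rose at 48 h in CGR8, where it was 37.5, 29.4 and 41.7 CPM at 0 h and 69.8, 63.2 and 66.5 at 48 h (0.88 ± 0.14, adjusted p = 1.89e-04). The NIH/3T3 levels were 174, 167 and 164 CPM at 0 h and 200.0, 198 and 192 at 48 h (0.23 ± 0.08, adjusted p = 0.0194). That call was lost without 0 h C, 48 h A or 48 h B, or with no filter on low counts (adjusted p 0.0530 to 0.149). The line difference was 0.63 ± 0.15 (adjusted p = 0.00260). Ssr1, Ssr2 and Ssr3 belong to the translocon-associated protein complex. Ssr2 was 303, 300.1 and 336 CPM at 0 h, 327, 311 and 317 at 5 h and 206, 203 and 193 at 48 h in NIH/3T3, with all 48 h libraries lowest (-0.64 ± 0.10, adjusted p = 6.62e-05). In CGR8 it was 266, 369 and 276 CPM at 0 h, 443, 386 and 302 at 5 h and 236, 265 and 237 at 48 h, with overlap (-0.30 ± 0.16, adjusted p = 0.177). Ssr3 was the member that rose at 5 h in NIH/3T3, from 645, 708 and 647 CPM at 0 h to 927, 1000.0 and 928 CPM (0.56 ± 0.10, adjusted p = 2.73e-04). It rose at 48 h in CGR8 (0.31 ± 0.11, adjusted p = 0.0437). This call did not hold without any 1 of the 6 libraries, or with library size alone or no filter on low counts (adjusted p 0.0627 to 0.149). Ssr1 had no call against 0 h, with log2 values from -0.18 to 0.13. Exons of Sec61a1, Sec63 and Ssr2 overlap noncoding genes or a pseudogene on the opposite strand.

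Members with an ERSE can be set beside the 18 with a promoter in the table and no ERSE, among which are Herpud1 and Dnajb11 with an ERSE-II. At 48 h in CGR8, 7 of 8 with an ERSE rose, with a median log2 fold change of 0.53, and 9 of 18 without it, with a median of 0.30 (background 12.2%). Between 5 h and 48 h in CGR8, 8 of 8 rose (median 1.09) against 11 of 18 (median 0.30; background 28.9%). Between the same times in NIH/3T3, 4 of 8 with an ERSE rose (median 0.22) against 9 of 17 tested without it (median 0.35, background 34.1%). In NIH/3T3 at 48 h, 1 of 8 with an ERSE was higher than at 0 h and 4 were lower (median -0.17), against 5 higher and 2 lower of 17 tested without it (median 0.05; background 26.7% higher and 25.6% lower). The line difference at 48 h was higher in CGR8 for 6 of 8 with an ERSE and lower for 0 (median 0.72). Without an ERSE it was higher for 5 of 18 and lower for 2 (median 0.15, background 9.78% higher and 12.1% lower). Those 18 include Dnajb9, which had 0 counts in NIH/3T3, so its change cannot be compared between the lines. These counts are a description of a few genes and were not tested against each other.

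The other genes of these pathways were taken from 5 lists, 94 of 95 listed genes with a row in the table. At 48 h the background for their counts was 26.7% higher and 25.6% lower in NIH/3T3 and 12.2% higher and 15.6% lower in CGR8. In the list of the PERK arm and stress signalling, 7 of 13 fell (background 27.1%) and 3 rose (background 24.0%) at 5 h in NIH/3T3, and 8 fell (background 27.2%) and 2 rose (background 24.9%) in CGR8. Trib3, a pseudokinase target of ATF4 and CHOP, fell at 5 h in NIH/3T3 from 9.98 ± 1.63 CPM to 2.52 ± 0.438 CPM (SD, n = 3; log2 fold change -1.94 ± 0.17, adjusted p = 2.87e-07). In CGR8 it fell at 5 h from 40.2 ± 5.43 CPM to 5.32 ± 0.423 CPM (SD, n = 3; log2 fold change -2.92 ± 0.29, adjusted p = 1.80e-06). It was still lower at 48 h, at 7.33 ± 3.18 CPM (-2.45 ± 0.28). Ppp1r15a, the GADD34 subunit that leads a phosphatase to eIF2 alpha, was lower at 48 h in NIH/3T3, going from 36.8 ± 5.37 CPM to 14.5 ± 1.24 CPM (SD, n = 3; log2 fold change -1.33 ± 0.15, adjusted p = 2.04e-06). At 48 h the list had 4 higher and 5 lower in NIH/3T3 and 3 higher and 4 lower in CGR8.

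Of other ER folding genes, 13 of 29 tested fell (background 27.1%) and 6 rose (background 24.0%) at 5 h in NIH/3T3. In CGR8, 8 of 30 fell (background 27.2%) and 7 rose (background 24.9%), both near the background. At 48 h, 7 were higher and 6 lower in NIH/3T3, and 6 higher and 3 lower in CGR8. Ero1b, an oxidase that recharges disulfide isomerases, fell at 5 h in NIH/3T3 from 5.60 ± 1.02 CPM to 3.02 ± 0.196 CPM (SD, n = 3; log2 fold change -0.85 ± 0.14, adjusted p = 1.23e-04). It was higher at 48 h in CGR8, going from 0.929 ± 0.290 CPM to 2.29 ± 0.539 CPM (SD, n = 3; log2 fold change 1.28 ± 0.28, adjusted p = 0.00260). Cdnf, a relative of Manf, was higher at 48 h in NIH/3T3, going from 0.827 ± 0.132 CPM to 1.85 ± 0.295 CPM (SD, n = 3; log2 fold change 1.19 ± 0.21, adjusted p = 2.27e-04). Sdf2, a relative of Sdf2l1, rose at 5 h in CGR8 from 23.4 ± 3.11 CPM to 55.3 ± 9.99 CPM (SD, n = 3; log2 fold change 1.24 ± 0.15, adjusted p = 1.12e-05).

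Of other degradation genes, 5 of 21 fell (background 27.1%) and 7 rose (background 24.0%) at 5 h in NIH/3T3, and 7 of 22 fell (background 27.2%) and 8 rose (background 24.9%) in CGR8. The counts that fell are near the background. At 48 h, 6 were higher and 7 lower in NIH/3T3, and 3 higher and 2 lower in CGR8. Ngly1, which removes N-glycans from proteins sent to the cytosol, rose in NIH/3T3 at 5 h from 14.9 ± 1.50 CPM to 35.3 ± 2.81 CPM (SD, n = 3; log2 fold change 1.29 ± 0.10, adjusted p = 1.68e-07). It was at 42.4 ± 2.80 CPM at 48 h (1.51 ± 0.10). Selenos, a selenoprotein adaptor of the degradation complex, rose at 5 h in CGR8 from 32.2 ± 2.11 CPM to 65.1 ± 3.62 CPM (SD, n = 3; log2 fold change 1.02 ± 0.12, adjusted p = 6.21e-06). Derl3, a derlin, rose at 48 h in CGR8 from 1.51 ± 0.491 CPM to 3.08 ± 0.461 CPM (SD, n = 3; log2 fold change 1.03 ± 0.26, adjusted p = 0.00686).

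Of translocation and signal processing genes, 9 of 19 rose (background 24.0%) and 2 fell (background 27.1%) at 5 h in NIH/3T3, and 9 rose (background 24.9%) and 4 fell (background 27.2%) in CGR8. At 48 h, 2 were higher and 6 lower in NIH/3T3, and 5 higher and 3 lower in CGR8. The first count, 11, was 7 without 0 h A, 0 h C, 5 h A or 5 h B. The NIH/3T3 count of 8 at 48 h was 5 without 0 h C, 48 h A, 48 h B or 48 h C. The CGR8 count of 8 at 48 h was 3 to 5 without 0 h A, 0 h B, 0 h C, 48 h A, 48 h B or 48 h C. Sec61g, the small gamma subunit of the channel, rose at 5 h in NIH/3T3 from 78.9 ± 10.7 CPM to 124 ± 9.65 CPM (SD, n = 3; log2 fold change 0.70 ± 0.18, adjusted p = 0.00403). In CGR8 it rose from 47.1 ± 1.37 CPM to 117 ± 19.3 CPM (SD, n = 3; log2 fold change 1.32 ± 0.17, adjusted p = 1.39e-05). Srp19, of the signal recognition particle, was lower at 48 h in NIH/3T3, going from 56.7 ± 1.45 CPM to 39.7 ± 1.81 CPM (SD, n = 3; log2 fold change -0.51 ± 0.11, adjusted p = 0.00143). Sec11c, a catalytic subunit of signal peptidase, rose at 48 h in CGR8 from 8.91 ± 0.958 CPM to 17.9 ± 1.68 CPM (SD, n = 3; log2 fold change 1.01 ± 0.15, adjusted p = 1.16e-04).

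Of 10 oligosaccharyltransferase genes, 4 fell (background 27.1%) and 0 rose (background 24.0%) at 5 h in NIH/3T3, and 1 fell (background 27.2%) and 2 rose (background 24.9%) in CGR8. At 48 h, 1 was higher and 1 lower in NIH/3T3, and 3 were higher and 1 lower in CGR8. The CGR8 count of 3 at 5 h was 1 without 0 h A or 0 h C and 6 without 0 h B, and that of 4 at 48 h was 2 without 0 h A, 0 h C or 48 h C. Rpn2, a structural subunit, fell at 5 h in NIH/3T3 from 795 ± 50.9 CPM to 545 ± 12.2 CPM (SD, n = 3; log2 fold change -0.50 ± 0.07, adjusted p = 5.06e-05). Stt3b, a catalytic subunit, fell at 5 h in CGR8 from 176 ± 2.31 CPM to 116 ± 12.8 CPM (SD, n = 3; log2 fold change -0.60 ± 0.11, adjusted p = 2.97e-04). Magt1, an oxidoreductase subunit, was higher at 48 h in NIH/3T3, going from 167 ± 9.97 CPM to 228 ± 5.76 CPM (SD, n = 3; log2 fold change 0.45 ± 0.08, adjusted p = 1.97e-04). In CGR8 it was also higher, going from 32.9 ± 5.17 CPM to 50.5 ± 4.53 CPM (SD, n = 3; log2 fold change 0.62 ± 0.15, adjusted p = 0.00614).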

How the data were processed

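The 30 libraries were stranded mRNA libraries, per the labels' protocols. The authors deposited raw counts per gene as 1 table of whole numbers, used here as counts. STAR, DESeq2 and GRCm39 are named, without versions, in the submitters' processing notes; the counting tool, its use of strand and the annotation release are not given in the sources used here. Reads of overlapping genes can therefore not be assigned with certainty.

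Of 57186 identifiers, 51880 (90.7%) matched a symbol in GENCODE M21 (GRCm38), which also gave exon lengths and overlaps. Counts were tested in R 4.3.3 with edgeR 4.0.16: TMM factors, filterByExpr (min.count 10, min.total.count 15), the quasi-likelihood F test and Benjamini-Hochberg adjustment over all genes tested (threshold 0.05). Each line was fitted over its 15 libraries, and line differences and 0 h levels over all 30. The code was tested on simulated counts. Alternatives were RLE scaling, library size alone, no filter, a replicate block, DESeq2 1.42.0, limma 3.58.1 (voom with sample weights) and leaving out each library. The SE is the fitted log2 value divided by the square root of F. In no comparison did all 3 same-letter correlations of deviations exceed 0.1, so the letters were not used as pairs.

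The members and lists were chosen with earlier results of these data known. The rule for names takes all members, and from each other list the called gene with the largest change at 5 h and at 48 h in each line; library values are also printed for further members chosen after their values were seen. Tusc3 was not analysed here.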

Additional observations from a re-analysis of the deposited data

Results flagged for a closer look

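The results below had a change against 0 h that differed between the lines by the edgeR test of the difference itself (adjusted p under 0.05). Values are the log2 change in CGR8 minus that in NIH/3T3. At 2 h Herpud1 differed by -1.16. At 5 h the values were -0.48 for Hspa5, 0.45 for Dnajb11, 0.56 for Creld2, -1.58 for Herpud1 and 0.74 for Sec61b. Of these, the calls of Dnajb11, Creld2 and Sec61b were lost when single libraries were left out, as given above.

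At 48 h the general chaperones Hspa5, Hsp90b1 and Calr had differences of 0.71, 1.04 and 0.96, and the disulfide isomerases Pdia3, Pdia4 and Pdia6 had 0.66, 0.90 and 1.18. For the co-chaperones Dnajb11, Dnajc3 and Dnajc10 the differences were 1.01, 0.72 and -0.36. The small ER stress proteins Sdf2l1, Creld2 and Manf had 0.99, 0.64 and 0.80, Herpud1 had -0.56 and Sec63 had 0.63. Those of Dnajc10 and Herpud1 were lost when single libraries were left out. No group had 4 or more libraries, so no library was tested as an outlier.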

How the results depend on the processing

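Of 167 calls of members over the 15 comparisons, 0 reversed under any alternative, and 132 were kept under all 6 settings and without each library. Voom with sample weights called more members than edgeR: 4 against 0 at 1 h, 19 against 9 at 2 h, 27 against 13 at 5 h and 23 against 13 at 48 h in NIH/3T3, 2 against 0 at 1 h in CGR8, and 19 against 5 at 5 h and 22 against 14 at 48 h for the line difference. Of all genes it also called more, 2881 against 102, 7827 against 4878, 9412 against 7112 and 9745 against 7295 at these times in NIH/3T3. In CGR8 it called 1044 genes against 43 at 1 h, 10048 against 8302 at 5 h and 7063 against 4429 at 48 h. For the line difference it called 6373 genes against 2329 at 5 h and 7622 against 3849 at 48 h. The count of members with a line difference at 5 h also moved to 8 with DESeq2 and to 3 with no filter on low counts.

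Leaving out 1 library gave 5 to 13 calls at 2 h and 7 to 12 at 48 h in NIH/3T3, 2 to 6 at 2 h in CGR8, and 3 to 8 for the line difference at 5 h. For the other lists, alternatives were chosen after seeing the data. Voom called 9 oligosaccharyltransferase genes at 5 h and 7 at 48 h in NIH/3T3, against 4 and 2, and 8 against 3 at 5 h in CGR8. It called 20 ER folding genes against 13 at 48 h in NIH/3T3, 16 against 9 at 48 h in CGR8, and 9 degradation genes against 5 at 48 h in CGR8. Translocation genes called at 48 h in CGR8 were 5 with no filter, against 8. Leaving out 1 library gave 7 to 10 translocation genes at 5 h and 5 to 8 at 48 h in NIH/3T3, 3 to 5 at 48 h in CGR8, and 1 to 6 oligosaccharyltransferase genes at 5 h and 2 to 4 at 48 h in CGR8. The cause of these moves was not tested. Each fit without a library pooled the spread over the remaining libraries of the line.

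With the replicate letter as a block, 10, 15 and 13 members were called at 2, 5 and 48 h in NIH/3T3, 4, 15 and 18 in CGR8, and 15 for the line difference at 48 h. In no comparison did all 3 same-letter correlations of deviations exceed 0.1, which does not exclude that the letters pair the libraries. At 2 h in CGR8 the same-letter values were -0.425, -0.523 and 0.236 for A, B and C, and the highest between different letters was 0.615. In CGR8 the same-letter values were -0.0777, 0.371 and 0.373 at 5 h and 0.0232, 0.182 and 0.154 at 48 h, so B and C exceeded 0.1 there and A did not. The highest between different letters were 0.330 and 0.119. For 48 h against 5 h in NIH/3T3 the lowest same-letter value, 0.0146, was just above the highest between different letters, 0.0140. The block ended the calls of Edem1 (adjusted p = 0.0519) and Ern1 (adjusted p = 0.0514) at 2 h and of Canx (adjusted p = 0.0509) at 48 h in CGR8. Depth limits what can be said of Ern1, at a few CPM in CGR8. Dnajb9 had 0 counts in NIH/3T3, so its change could not be fitted there. Why it had no counts in that line was not tested.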
